A study of Homo sapiens with 4 samples.

Results

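Clade B serpins are a family of mostly intracellular protease inhibitors, and 10 of their genes were followed here in MCF10A, an immortalised, non-tumorigenic human mammary epithelial line. A member was kept where a probe set was annotated to that 1 symbol only. This held for 7 of 10 listed genes (SERPINB1, SERPINB3, SERPINB5, SERPINB7, SERPINB8, SERPINB9 and SERPINB13), each with 1 probe set, among 20461 named genes. SERPINB4 was read only by a probe set that it shares with SERPINB3, and SERPINB2 and SERPINB6 were not analysed here. The cells were untreated stable transfectants carrying LacZ (a bacterial enzyme used as control), Her2 (the receptor tyrosine kinase ERBB2), the H1047R variant of PIK3CA (a lipid kinase subunit downstream of such receptors), or Her2 with that variant. The study's stated purpose was to identify target genes of each transgene and of their combination. There was 1 array for each of the 4 groups, named below by its label (the LacZ array, the Her2-labelled array, the PIK3CA-labelled array for the H1047R variant alone, and the doubly labelled array). No difference below has a replicate check, an SD or a test, and a difference between arrays cannot be told apart from the spread between cultures. The labels do not say whether a transfectant was a pool or 1 clone, and the promoters of the transgenes are not stated there.

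A serpin inhibits a protease by offering a flexible reactive loop as bait. When the protease cuts the loop, the serpin changes shape and traps the enzyme in a covalent complex. Clade B members lack a classical secretion signal and act largely inside cells, where they are known to guard against proteases leaking from lysosomes or granules, and several of them are typical of stratified epithelia. Human RefSeq lists 13 clade B genes, in a cluster on chromosome 6 and another on chromosome 18.

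Values are deposited log2 expression values, so a difference of 1 is 2-fold. Medians over all 53617 probe sets lay between 1.13 and 1.17 on the 4 arrays, and upper quartiles between 2.48 and 2.62. A log2 value of 5 was reached by 10.0% to 10.4% of probe sets on each array. Probe sets differ in how strongly they bind, so levels of different genes were not ranked. The ERBB2 probe set (shared with MIR4728) went against the labels, with 5.96 on the LacZ array, 4.29 on the Her2-labelled array, 8.48 on the PIK3CA-labelled array and 7.39 on the doubly labelled array. All directions are therefore given for arrays as labelled, and exchanging the labels of both single-gene arrays would exchange their values below. Of 6 measured epithelial markers, 5 reached a log2 value of 5 on every array, CDH1 only just on the doubly labelled array, at 5.07. KRT14 lay between 1.47 and 3.43. The measured markers were the basal genes KRT5, KRT14, ITGB4 and LAMB3 and the general epithelial genes CDH1 and EPCAM. The basal markers KRT17 and TP63 were listed but not measured.

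Of 7 measured serpins, 3 reached the log2 value of 5 on some array (SERPINB1, SERPINB5 and SERPINB7), and only SERPINB1 and SERPINB5 did so on all 4. The other 4 stayed below 5 on every array. SERPINB7 and SERPINB1 differed most between arrays, with ranges of 4.29 and 2.83 log2 units, and SERPINB5 was high throughout with a range of 0.81. The plot of log2 values by array shows these tiers.

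**Figure D1:**
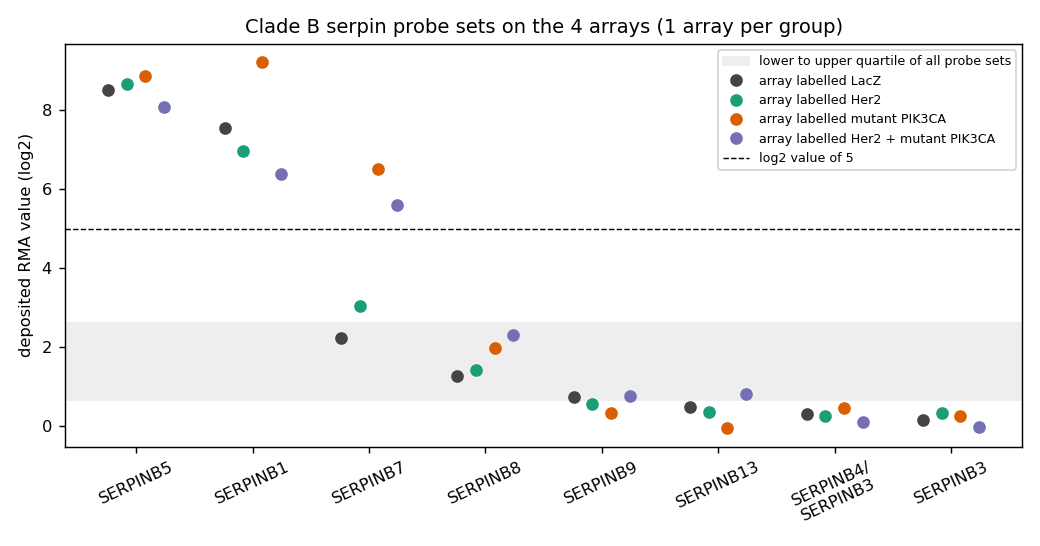
Deposited log2 values of the 7 measured clade B serpins and of the probe set shared by SERPINB4 and SERPINB3, with 1 point for each array and genes ordered by their LacZ value. The grey band spans the lower to upper quartile of all probe sets (lowest and highest quartile over the 4 arrays), and the dashed line marks a log2 value of 5, which SERPINB7 passes only on the arrays labelled mutant PIK3CA (6.52) and with both (5.60).

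SERPINB7, also called megsin, is an epidermal serpin whose loss in humans causes a palmoplantar keratosis. It read 2.23 on the LacZ array, 3.05 on the Her2-labelled array, 6.52 on the PIK3CA-labelled array and 5.60 on the doubly labelled array. Both arrays whose label includes mutant PIK3CA were thus high and both others low. The difference from the LacZ array was 4.29 (19.6-fold) on the PIK3CA-labelled array. It was 3.38 (10.4-fold) on the doubly labelled array and 0.83 (1.77-fold) on the Her2-labelled array. Set against the Her2-labelled array, SERPINB7 was higher by 2.55 on the doubly labelled array and by 3.46 on the PIK3CA-labelled array. Between the doubly labelled array and the PIK3CA-labelled array it differed by -0.91, short of 2-fold, and by -1.48, past it, after cyclic loess normalization of the genes reaching 5. The LacZ value lay above 72.3% of probe sets but below that array's upper quartile of 2.50, so it lay near background and the folds against LacZ may be understated. Less of the RNA per cell and fewer expressing cells cannot be told apart in such bulk RNA.

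RefSeq gives 3 transcript starts for SERPINB7, and the data do not say which of them is used. The 250 bases before each start are shown because this gene had the widest range of the family (RefSeq, GRCh38.p14, plus strand, at chr18:63752807-63753056, chr18:63775168-63775417 and chr18:63777531-63777780). Capitals mark matches, on either strand, to TGANTCA (the AP-1 motif, which reads the same on both strands), TATAAA (the TATA box), GGGCGG (the GC box) or CGGAAG (an ETS motif).
SERPINB7 start 1: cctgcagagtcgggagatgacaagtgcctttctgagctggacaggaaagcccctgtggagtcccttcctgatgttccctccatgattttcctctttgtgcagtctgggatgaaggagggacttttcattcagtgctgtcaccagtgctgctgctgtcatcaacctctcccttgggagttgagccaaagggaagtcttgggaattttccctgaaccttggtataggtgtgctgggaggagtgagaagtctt
SERPINB7 start 2: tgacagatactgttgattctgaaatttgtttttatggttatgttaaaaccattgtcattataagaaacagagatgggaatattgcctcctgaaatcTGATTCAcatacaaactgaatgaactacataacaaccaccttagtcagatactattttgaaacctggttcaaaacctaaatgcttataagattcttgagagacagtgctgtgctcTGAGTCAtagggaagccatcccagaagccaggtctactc
SERPINB7 start 3: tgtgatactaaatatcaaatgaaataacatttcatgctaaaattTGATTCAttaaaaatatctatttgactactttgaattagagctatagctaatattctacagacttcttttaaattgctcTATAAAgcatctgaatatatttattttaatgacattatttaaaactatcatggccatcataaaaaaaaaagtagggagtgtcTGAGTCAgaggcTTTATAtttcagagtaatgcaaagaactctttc
The window of start 1 held none of these letters. TGAGTCA lay at position -39 from start 2 and at -45 from start 3, and each of these windows held TGATTCA further upstream, at -154 and -206. The window of start 3 also held TATAAA at -127 and, on the other strand, at -33. TGANTCA stood in 6 of 15 windows of the 10 listed serpins, and in 6.57% of all 35116 RefSeq windows of this length. Those 6 belong to SERPINB2, SERPINB5, SERPINB7, SERPINB8 and SERPINB13, and SERPINB2 and SERPINB5 held only TGAATCA, which is not the usual form. The share of all windows with the usual form was not taken. The TATA box stood in 4 of 15 windows (10.7% of all RefSeq windows), the GC box in 6 (42.6%) and the ETS motif in 3 (16.5%). Windows of 1 gene are not independent, and the motifs were chosen after the values were seen. A match describes the letters only, and binding was not measured.

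SERPINB1 inhibits neutrophil elastase and related granule proteases. Its log2 values were 7.56 on the LacZ array, 6.98 on the Her2-labelled array, 9.21 on the PIK3CA-labelled array and 6.38 on the doubly labelled array. The PIK3CA-labelled array stood highest and the doubly labelled array lowest. The PIK3CA-labelled array was higher than the LacZ array by 1.66 (3.15-fold) and higher than the Her2-labelled array by 2.24 (4.71-fold). The doubly labelled array differed from the LacZ array by -1.17 (2.25-fold lower) and from the PIK3CA-labelled array by -2.83 (7.09-fold lower), where 39 of 4309 genes had a lower difference. The differences of the Her2-labelled array from LacZ (-0.58) and of the doubly labelled array from Her2 (-0.59) were short of 2-fold. SERPINB1 thus shared its highest array with SERPINB7 but not its order on the other 3.

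SERPINB1 has 1 RefSeq start, whose upstream window (GRCh38.p14, minus strand, chr6:2841864-2842113) is shown for comparison with SERPINB7, because both were over 2-fold higher on the PIK3CA-labelled array.
SERPINB1: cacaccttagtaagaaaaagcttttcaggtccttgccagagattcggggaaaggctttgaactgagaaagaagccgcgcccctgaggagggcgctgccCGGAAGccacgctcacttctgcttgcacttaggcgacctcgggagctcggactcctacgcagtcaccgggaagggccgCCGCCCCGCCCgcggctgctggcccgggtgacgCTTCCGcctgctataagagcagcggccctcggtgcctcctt
It held GGGCGG on the opposite strand at -74 and -69, matches that overlap by 1 base, and CGGAAG at -152 and, on the opposite strand, at -41. It held no TGANTCA or TATAAA. Of all windows, 42.6% held the GC box, 16.5% the ETS motif and 10.7% the TATA box.

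SERPINB5 (maspin) is known as an inhibitor-family member that does not trap proteases and as a tumour suppressor of mammary epithelium. Its log2 values were 8.51 on the LacZ array, 8.66 on the Her2-labelled array, 8.88 on the PIK3CA-labelled array and 8.07 on the doubly labelled array. All 4 were high, above at least 98.4% of probe sets on their array, and no pair of arrays differed 2-fold. The largest difference was -0.81 (1.75-fold lower), between the doubly labelled array and the PIK3CA-labelled array. As for SERPINB1, the PIK3CA-labelled array was highest and the doubly labelled array lowest. Its window (GRCh38.p14, plus strand, chr18:63476708-63476957) is shown as that of the member with a high and nearly level signal.
SERPINB5: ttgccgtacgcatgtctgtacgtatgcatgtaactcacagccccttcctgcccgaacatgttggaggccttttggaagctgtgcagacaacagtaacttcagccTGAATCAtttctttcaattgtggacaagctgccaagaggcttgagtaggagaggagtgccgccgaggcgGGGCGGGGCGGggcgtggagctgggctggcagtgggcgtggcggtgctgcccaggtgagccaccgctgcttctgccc
It held TGAATCA at -146 and GGGCGG at -77 and -72, which overlap by 1 base.

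SERPINB8, an inhibitor of the convertase furin, read low. Its log2 values were 1.27 on the LacZ array, 1.43 on the Her2-labelled array, 1.98 on the PIK3CA-labelled array and 2.32 on the doubly labelled array. All 4 lay below the upper quartile of the probe sets on their array. The doubly labelled array was higher than the LacZ array by 1.05, just past 2-fold, and the next largest difference, 0.88 against the Her2-labelled array, was just short of it. The call depended on the normalization: the difference was 1.02 after quantile normalization and 1.11 after cyclic loess of all named genes, but -0.27 after quantile normalization of the genes reaching a log2 value of 5 with the members added, where 0 of 4309 genes had a mean below that of SERPINB8.

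SERPINB9, the inhibitor of granzyme B, read between 0.35 and 0.78 on the 4 arrays. SERPINB13 (headpin), an inhibitor of cathepsins K and L found in stratified epithelia, read between -0.05 and 0.81. SERPINB3, which inhibits lysosomal cysteine cathepsins, read between -0.01 and 0.34. The probe set for SERPINB4 and SERPINB3 together read between 0.12 and 0.46. All of these values lay below the array medians, so neither a presence nor a difference of these serpins was detectable here. SERPINB3 and SERPINB4 are near-identical copies, and their windows of 250 bases differ at 3 positions. SERPINB10, SERPINB11 and SERPINB12, the clade B genes outside the list, also read low, between 0.41 and 0.85.

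On the Her2-labelled array, 0 of 7 measured serpins were at least 2-fold higher than on the LacZ array and 0 lower, where 1.86% of all named genes were higher and 1.67% lower. On the PIK3CA-labelled array 2 were higher (SERPINB7 and SERPINB1) and 0 lower, where the shares over all named genes were 2.63% and 1.94%. On the doubly labelled array 2 were higher (SERPINB7 and SERPINB8) and 1 lower (SERPINB1), beside 6.6% and 4.51%. The plot of differences from LacZ shows these members. Against the PIK3CA-labelled array, the doubly labelled array had 0 members higher and 1 lower (SERPINB1), beside 5.35% and 3.52%. Against the Her2-labelled array it had 1 higher (SERPINB7) and 0 lower, beside 4.46% and 2.65%. The PIK3CA-labelled array had 2 higher than the Her2-labelled array (SERPINB7 and SERPINB1) and 0 lower, beside 2.71% and 2.55%. These comparisons share arrays and are not independent of each other.

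**Figure D2:**
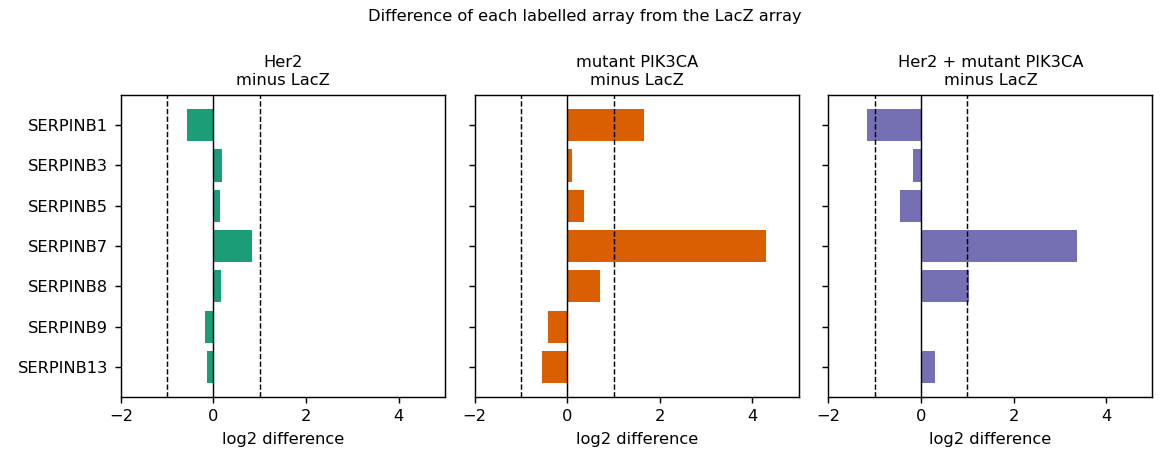
Log2 difference of each measured clade B serpin between an array labelled Her2, mutant PIK3CA or Her2 + mutant PIK3CA and the LacZ array, with dashed lines at 2-fold. SERPINB7 reaches 4.29 and 3.38 in the panels with mutant PIK3CA, and SERPINB1 stands at 1.66 in the middle panel and at -1.17 in the right panel.

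The median difference from LacZ of the 7 serpins was 0.15 on the Her2-labelled array, 0.36 on the PIK3CA-labelled array and 0.03 on the doubly labelled array, beside medians over all named genes of -0.02, 0.00 and -0.04. These medians include the 4 members that read low on every array. SERPINB1, SERPINB5 and SERPINB7 were all higher on the PIK3CA-labelled array than on LacZ (by 1.66, 0.36 and 4.29) and all lower on the doubly labelled array than on the PIK3CA-labelled array (by differences of -2.83, -0.81 and -0.91), with SERPINB5 short of 2-fold in both and SERPINB7 in the second. Genes near background are rarely called, so the share of genes called was also taken over the 4309 genes that reached a log2 value of 5. Against LacZ, 2.95% of them were called higher and 2.55% lower on the Her2-labelled array, 7.03% and 4.08% on the PIK3CA-labelled array, and 13.8% and 11.1% on the doubly labelled array. On the doubly labelled array 10.0% were called higher and 8.87% lower than on the PIK3CA-labelled array, and 9.07% higher and 6.1% lower than on the Her2-labelled array. On the PIK3CA-labelled array 6.1% were called higher and 3.69% lower than on the Her2-labelled array. SERPINB7 passed this filter only through the arrays on which it was high.

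**Figure D3:**
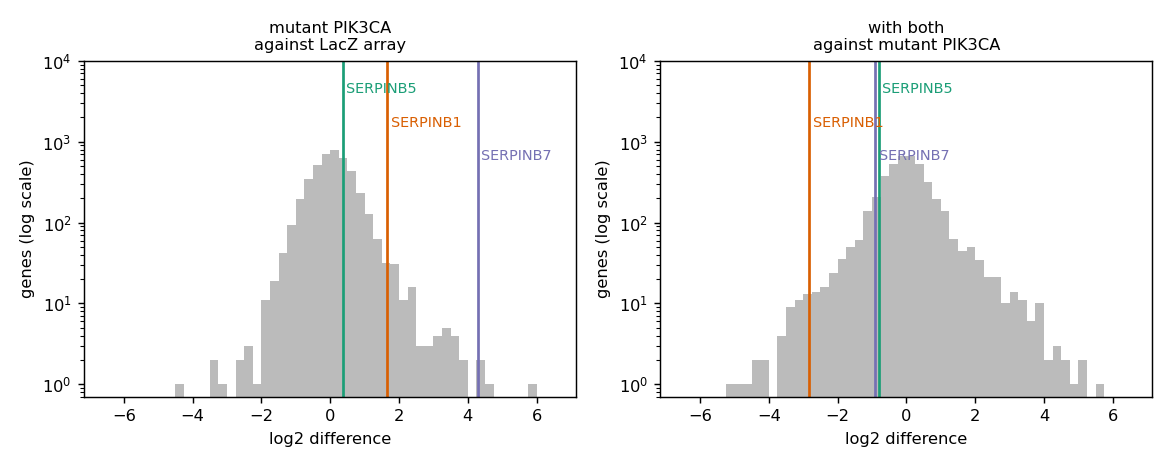
Distribution of log2 differences over the 4309 genes reaching a log2 value of 5, with the number of genes on a log axis, and vertical lines for SERPINB1, SERPINB5 and SERPINB7. In the left panel (PIK3CA-labelled array against LacZ) SERPINB7 lies far in the right tail at 4.29, and in the right panel (doubly labelled array against mutant PIK3CA) SERPINB1 lies in the left tail at -2.83 while SERPINB7 (-0.91) and SERPINB5 (-0.81) lie close together.

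The 3 serpins that reached a log2 value of 5 read lower with both genes than the single differences would add up to. For SERPINB1 the single differences from LacZ sum to 1.08, and the doubly labelled array stood at -1.17, a departure from additivity of -2.25. For SERPINB7 the sum was 5.12 and the value with both 3.38, a departure of -1.74. SERPINB7 reached 5 only on the arrays whose label includes mutant PIK3CA, and both enter its departure. Its LacZ value, which also enters, lay near background. For SERPINB5 the sum was 0.51 and the value -0.44, a departure of -0.96, short of 2-fold. Among the members that read low on every array, SERPINB3 departed by -0.46. SERPINB8, SERPINB9 and SERPINB13 departed upwards, by 0.17, 0.61 and 0.99. Departures of at least 2-fold downwards thus occurred for 2 of 7 members, beside 4.34% of all named genes. Both were among the 3 members reaching 5, beside 9.03% of all genes reaching 5. Upwards there were 0, beside 5.85% of all named genes and 9.47% of those reaching 5.

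The summed level of the epithelial markers, basal and general together, was lowest on the doubly labelled array, as SERPINB1 and SERPINB5 were. The linear sum over 6 measured genes was 2172 on the LacZ array, 1539 on the Her2-labelled array, 2830 on the PIK3CA-labelled array and 658 on the doubly labelled array. Members differed: CDH1 read 9.34 on the LacZ array and 5.07 on the doubly labelled array, and EPCAM 7.94 and 5.71. KRT5 was nearly level at 7.27 and 7.14, and KRT14 was higher on the doubly labelled array, at 3.43 against 1.47. Fibroblast markers moved too, with summed levels over 6 genes of 40.9, 402, 48.8 and 376 in the same order. On the LacZ array 0 of them reached a log2 value of 5, on the Her2-labelled array 2 did (FAP at 5.92 and DPT at 8.38), and on the doubly labelled array 3 did (LUM at 6.26, DCN at 5.06 and DPT at 7.86), while COL1A1 and COL1A2 stayed below 2.25 on every array. The squamous keratinocyte list summed over 8 genes to 28.7, 24.9, 62.8 and 31.5. It was thus highest on the array where SERPINB7 was highest, with SPRR1B at 4.42 there against 1.12 on the LacZ array, yet 0 of 8 reached a log2 value of 5 on any array, and FLG, LORICRIN and KRT1 read at most 1.51. The part of these markers in the serpin values was not tested. Leukocyte markers, which matter because SERPINB1 and SERPINB9 are abundant in blood cells, reached 5 in 0 of 7 cases. PTPRC read at most 0.93, and the highest was CD14, at 3.24 on the Her2-labelled array. Endothelial markers reached 5 in 0 of 3 cases, with KDR at 4.81 on the doubly labelled array and 2.03 on the PIK3CA-labelled array.

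Genes whose pattern over the 4 arrays lay closest to that of a member were found by the root mean square distance of their log2 values, each gene centred on its own mean, among genes reaching 5. For SERPINB7 they were CCN1, a secreted matricellular protein (distance 0.37), IGFL2-AS1, an antisense RNA (0.41), and CLCA2, a chloride channel accessory protein of epithelia (0.41). CCN1 read 3.26 on the LacZ array, 3.78 on the Her2-labelled array, 6.55 on the PIK3CA-labelled array and 6.29 on the doubly labelled array. For SERPINB1 they were the kinase PIM1 (0.16), ZNF185 (0.22) and LAMB3 (0.24), a laminin chain that is itself on the epithelial marker list. LAMB3 read 8.61, 8.19, 10.15 and 6.94 in the same order of arrays, so it too was highest with the mutant PIK3CA label and lowest with both. For SERPINB8 they were EBP, an enzyme of cholesterol synthesis (0.01), LUZP1 (0.03) and SRGAP2B (0.03), whose probes may read its near-identical relatives. SERPINB8 itself read below the upper quartile of probe sets on every array, and its difference from LacZ depended on the normalization. Its small distances therefore describe a pattern near background. With only 4 arrays many genes can share a pattern, and the distances are a description.

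**Figure D4:**
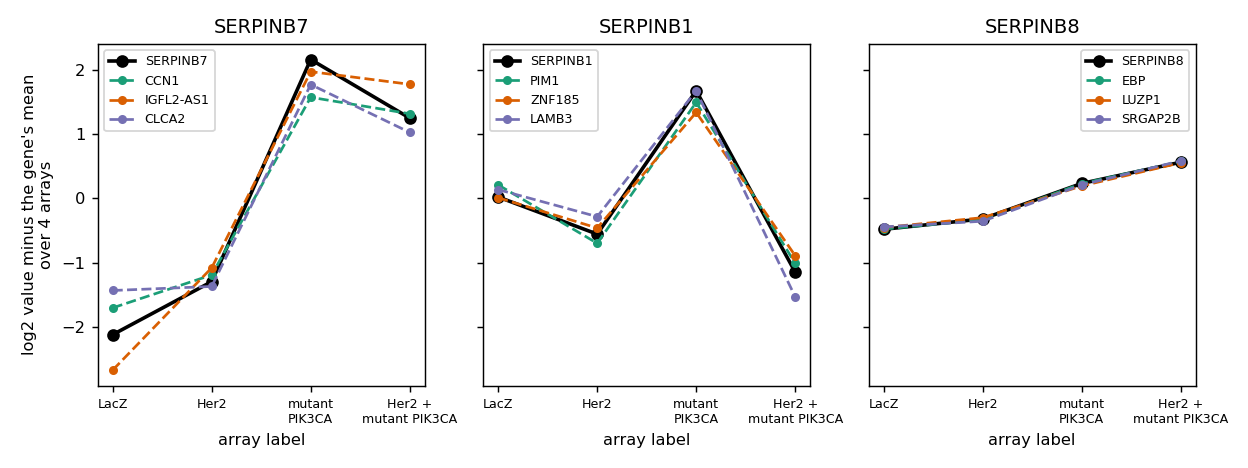
Log2 values centred on each gene's mean over the 4 arrays, for the 3 serpins with the widest range (black) and the 3 closest genes of each (dashed). SERPINB7 and its neighbours are high on both arrays whose label includes mutant PIK3CA, whereas SERPINB1, PIM1, ZNF185 and LAMB3 peak on the PIK3CA-labelled array and are lowest on the doubly labelled array. SERPINB8 read below the upper quartile of probe sets on every array, which centred values do not show.

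Proteases that clade B serpins can inhibit were also read. Of 10 cathepsins of the lysosomal cysteine family, among them targets of SERPINB3 and SERPINB13, 4 reached a log2 value of 5 on some array. Against LacZ, 1 cathepsin was at least 2-fold higher and 0 lower on the PIK3CA-labelled array, beside 2.63% and 1.94% of all named genes. That gene was CTSV (cathepsin V), with 1.97 on the LacZ array, 2.01 on the Her2-labelled array, 3.93 on the PIK3CA-labelled array and 2.69 on the doubly labelled array. On the Her2-labelled array, CTSK (cathepsin K) differed from LacZ by 1.37 and CTSF by -1.17. Over all named genes 1.86% were called higher and 1.67% lower there. On the doubly labelled array 0 of 10 differed 2-fold, beside 6.6% and 4.51%. CTSV, CTSK and CTSF stayed below 5 on every array, and counts among so few genes say little. All 9 granule serine proteases of blood cells, among them targets of SERPINB1 and SERPINB9, stayed below a log2 value of 5, with ELANE (neutrophil elastase) between 1.10 and 1.40 and GZMB (granzyme B) between 0.56 and 0.77. FURIN read between 5.41 and 6.06, and 0 of 4 proprotein convertases differed 2-fold between any 2 arrays. The others of these 4 stayed below 5, and so short a list gives a count that says little.

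In the urokinase system, PLAU (urokinase) read 5.38 on the LacZ array, 5.48 on the Her2-labelled array, 4.82 on the PIK3CA-labelled array and 3.91 on the doubly labelled array. The last of these was lower than LacZ by more than 2-fold (a difference of -1.47). PLAT (tissue plasminogen activator) went the other way, with a difference of 1.69 on the doubly labelled array from a LacZ value of 2.34, and the urokinase receptor PLAUR differed by -0.95 there. Of 11 measured serpins of other clades, 0 were 2-fold higher than LacZ on the Her2-, PIK3CA- or doubly labelled array. Over all named genes these shares were 1.86%, 2.63% and 6.6%. On the doubly labelled array 4 of the 11 were lower, where 4.51% of all named genes were lower. These were SERPINA3 (antichymotrypsin) at -2.25, SERPINH1, a collagen chaperone, at -1.29, SERPINA1 (antitrypsin) at -1.17 and SERPINA5 at -1.08. The last also differed by -1.06 on the PIK3CA-labelled array, where SERPINB7 and SERPINB1 were higher. Only 2 of the 11 reached a log2 value of 5 on any array. SERPINA1 read 2.18 on the LacZ array and 1.01 on the doubly labelled array, and SERPINA5 read 2.93 and 1.85.

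Genes flanking the serpin clusters were read beside SERPINB7 and SERPINB1, with 5 protein-coding genes listed on each side of each cluster. Of these, 17 were measured and 6 reached a log2 value of 5 on some array. On the PIK3CA-labelled array 0 of 17 differed 2-fold from LacZ, beside 2.63% of all named genes higher and 1.94% lower. At such shares a count of 0 among so few genes says little. On the doubly labelled array, 4 of 17 were at least 2-fold higher than on the LacZ array and 0 lower, beside 6.6% and 4.51% of all named genes. They were CCDC102B by 3.00, DSEL by 1.30, TMX3 by 1.05 and BCL2 by 1.04. BCL2 read low, at 1.28 on the LacZ array and 2.31 on the doubly labelled array. CCDC102B and DSEL were also over 2-fold higher on the Her2-labelled array (2.54 and 1.24). Their medians were 0.19, 0.00 and 0.19 on the Her2-, PIK3CA- and doubly labelled arrays, each against LacZ.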

How the data were processed

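RNA (400 ng each) of 4 MCF10A transfectants was hybridised to 1 Affymetrix whole-transcript array each, per the labels' protocols. The authors summarised each probe set with RMA in oligo, per the submitters' processing notes, and deposited log2 values. No version is given in the sources used here, and the log base was inferred from RMA and from the range (-0.77 to 12.35). RMA equalises arrays, so a shift common to most genes would not show.

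Of 53617 probe sets, 23871 carry 1 symbol, 1842 several and 27904 none in the platform annotation. Symbols were updated through RefSeq (GRCh38.p14), which changed 90. Small RNAs, ERBB2 and PIK3CA were left out, which left 20461 genes, each read by its highest-mean probe set. A gene was counted at a log2 difference of at least 1. With 1 array per group no test was made, and the number of arrays limits the precision. Every measured member was named. Members of other lists were named when 2-fold different from LacZ, at most 4 per list, and 3 pattern neighbours for the 3 members of widest range. Other genes (markers, ELANE, GZMB, FURIN and PLAUR, and the motifs) were chosen after values were seen. The members and lists were chosen with earlier results of these data known. Counting was checked on simulated data. Python 3.11.15, pandas 2.3.3 and limma 3.58.1 (quantile and cyclic loess normalization, 3 iterations) were used. Alternatives were filters at 5 and 7, these normalizations, the mean of all probe sets and a 1.5-fold threshold. Cyclic loess of all named genes was chosen after seeing the data.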

Additional observations from a re-analysis of the deposited data

Results flagged for a closer look

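For SERPINB1, SERPINB5 and SERPINB7, the effect of a label had opposite signs against LacZ and in the pair that includes the doubly labelled array. Signs were also opposite for SERPINB3, SERPINB9 and SERPINB13, which read low on every array and are not detailed here. Among the measured members, only SERPINB8, which also read low, kept its sign for both labels. The share of all genes with opposite signs was not taken, so these sign changes have no background beside them. Each pair is 1 array against 1, and these differences between pairs were not tested. SERPINB1 differed with the mutant PIK3CA label by 1.66 against LacZ and by -0.59 in the presence of the Her2 label. SERPINB7 differed with the Her2 label by 0.83 against LacZ and by -0.91 in the presence of the mutant PIK3CA label, both short of 2-fold. SERPINB5 differed with the Her2 label by 0.15 and -0.81, and with the mutant PIK3CA label by 0.36 and -0.59, all short of 2-fold.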

How the results depend on the processing

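No paired analysis was possible because each group has 1 array, and for the same reason no array could be left out. The counts of members past 2-fold and all differences of SERPINB1, SERPINB5 and SERPINB7 kept their direction and their side of 2-fold under quantile normalization and cyclic loess of all named genes. The mean of all probe sets changes nothing here, because each measured member has 1. Across the normalizations, SERPINB7 on the PIK3CA-labelled array differed from LacZ by 3.61 to 4.31, and SERPINB1 by 1.53 to 1.66. Quantile normalization of the genes reaching a log2 value of 5 left 1 member higher in both against LacZ, because SERPINB8 turned to -0.27. Cyclic loess of that set moved SERPINB8 to -5.18. There it also left 1 member higher and put 5 lower in both against LacZ. It put 3 lower in mutant PIK3CA against LacZ, 6 in both against mutant PIK3CA, 4 in both against Her2 and 3 in mutant PIK3CA against Her2. Its departures from additivity were -7.53 for SERPINB3, -4.35 for SERPINB8, -5.77 for SERPINB9 and -5.73 for SERPINB13. For these 4 members 0 of the 4309 genes had a lower mean, so that fit had no other genes at their level. Cyclic loess of all named genes gave SERPINB13 a departure of 1.02, against 0.99. A filter at 5 left 1 member higher in both against LacZ. A filter at 7, which drops SERPINB7, left 1 higher in mutant PIK3CA against LacZ, beside 7.19% of the 1196 genes reaching 7. It left 0 higher in both against LacZ (beside 12.5%), 0 in both against Her2 (8.03%) and 1 in mutant PIK3CA against Her2 (6.52%). At 1.5-fold, 1 member was higher in Her2 against LacZ, and 1 was higher and 3 lower in both against mutant PIK3CA. In both against Her2, 2 were higher and 2 lower. The share of all genes past 1.5-fold was not taken, so these counts have no background beside them. At that threshold the departures of SERPINB5 (-0.96), SERPINB9 (0.61) and SERPINB13 (0.99) would also count. Low values, below the array medians for all but SERPINB8, limit what can be said of the 4 low serpins.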
